A study of Aspergillus nidulans with 4 samples.

Results

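The genes described here are annotated to the compartments or the traffic of the secretory and endocytic pathways of the filamentous fungus *Aspergillus nidulans*. They were chosen by the words of the function text that the authors' table gives each gene. A gene was taken where that text held vesicle, Golgi, exocyst, SNARE, coatomer, COPII, endosom or exocytosis. It was left out where the text also held protein kinase, chaperone, ubiquitin, sterol, peptidase or proteinase. Of the 10930 genes listed, 184 held one of the first words, 5 of these held an excluded word, and 179 remained. The rule reads only this text. For 133 of the 179 genes the text states a role or an activity, mostly taken from orthologs, and for 46 it states only where the ortholog's protein is found.

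Secreted and membrane proteins enter the endoplasmic reticulum (ER), leave it in vesicles with a COPII coat, and reach the Golgi apparatus, from which vesicles with a COPI coat bring residents back. Vesicles leaving the Golgi are tethered at the plasma membrane by the exocyst, a protein complex, and fuse through SNARE proteins, while other carriers run to endosomes and the vacuole. In filamentous fungi this traffic is directed at the hyphal tip, where the cell wall is extended and enzymes that degrade polymers are released.

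The mutant was FGSC A1358 (Δ*pkaA*), which lacks the gene for PkaA, a catalytic subunit of the cAMP-dependent protein kinase. It was set against the parental strain FGSC A1405 (WT), and further alleles of either strain were not given in the sources used here. Both strains were grown as mycelium at 28°C and 250 rpm in rich YGV medium, which held 0.5% yeast extract and 2% glucose. RNA was taken from 2 samples per strain after about 20 h of main culture, following a seed culture that the labels put at 12 h and pH 3.3. Each strain is a single isolate, so what is common to a strain cannot be told apart from the effect of the deletion.

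The deposited value is a mean normalized count, which is the reads on a gene divided by a size factor for each library and averaged over the libraries of the strain. Over all genes these means summed to 29312151 in Δ*pkaA* and 31012501 in the WT. For many genes the 2 whole read numbers behind a mean could be recovered, because only 1 of the pairs of whole numbers considered gives that mean. Above a mean of 100 only pairs less than 2-fold apart were considered. With that limit 105 of the genes described here could be tested, and 20 without it. For most of them the recovered reads thus assume that the libraries of a strain were close. The recovered libraries are called a and b here, and they could not be matched to the labelled replicates. Where both strains were recovered, log2(value + 1) was tested with limma, and a gene is said to have risen or fallen in Δ*pkaA* where its adjusted p was below 0.05. The labels call the replicates biological. How separate the cultures were is not stated further, so the p-values measure the spread between these libraries. AN6305 (*pkaA*) itself had 79 and 69 reads in Δ*pkaA* and 1892 and 1851 reads in the WT. The Δ*pkaA* mean was 25.3-fold lower (log2 fold change -4.64, SE 0.13, limma adjusted p = 7.28e-07). Of 7 markers of conidiophores and conidia, *abaA*, *vosA*, *wA* and *rodA* fell in Δ*pkaA*, *wetA* and *yA* rose, *brlA* was not called, and none was at 0 in any library. The calls of *wetA* and *yA* were each lost when a Δ*pkaA* library was left out. Summed over all 7 markers, the normalized count was 1076 and 1171 in the Δ*pkaA* libraries and 2832 and 2447 in the WT libraries. Most of the WT sum came from *abaA* and *vosA*, with WT means of 951 and 963, so it does not speak for each marker. The part of spore-forming cells in the results that follow was not tested. In bulk RNA, fewer cells of a type and less RNA per cell cannot be told apart.

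As a group, the vesicle traffic genes stood somewhat higher in Δ*pkaA* than in the WT, by small amounts. Of the 178 with an average of at least 10, 132 had the higher mean in Δ*pkaA* and 46 in the WT, so 74.2% were higher in Δ*pkaA*, against 50.0% of the 9455 genes that passed the same filter. Their median log2 ratio was 0.30, with quartiles of -0.01 and 0.58. Over all 9455 genes the median was 0.00 and the quartiles were -0.61 and 0.59. The upper quartile was thus close to that of all genes, while the lower quartile lay above theirs. Only 11 genes (6.18%) were at least 2-fold higher in Δ*pkaA*, against 16.3% of all genes, and 7 (3.93%) were at least 2-fold lower, against 16.4% of all genes. At 1.5-fold the numbers were 43 higher (24.2%, against 25.2% of all genes) and 14 lower (7.87%, against 25.7%). The share of the summed means held by the 179 genes was 1.81% in Δ*pkaA* and 1.44% in the WT. These are counts over the authors' means and carry no test.

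**Figure D1:**
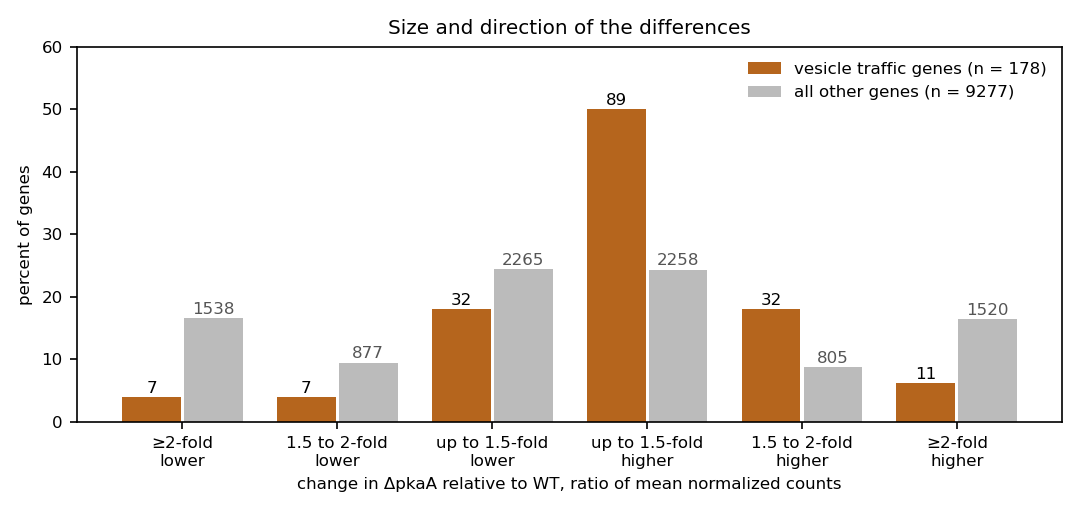
Percent of genes (vertical axis, from 0) in 6 bins of the ratio of the Δ*pkaA* mean to the WT mean (horizontal axis), for the 178 vesicle traffic genes (brown) and the 9277 other genes (grey) with an average of at least 10, with the number of genes above each bar. The bin of up to 1.5-fold higher holds 89 vesicle traffic genes, and the outermost bins hold 7 and 11.

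Reads came back for both strains in 106 of the 179 genes, and 105 of these passed the filter and were tested together with all other recovered genes, 6591 in all. Of the 105, 45 rose in Δ*pkaA* (42.9%, against 31.9% of all genes tested), 16 fell (15.2%, against 33.5%), and 44 were not called. Only 4 of the 105 were called and at least 2-fold higher in the means, against 16.6% of all genes tested, and 5 were called and at least 2-fold lower, against 17.3%. In 62 of the 106 genes both Δ*pkaA* libraries lay above both WT libraries and in 26 both lay below, while the strains overlapped in 18. Over all genes tested these shares were 41.0% above and 43.1% below. The tested genes are not an even sample of the group, since high means are harder to resolve. Their median average was 1492, against 3683 for the genes not tested. Among genes with an average of at least 1000, 29 of 73 rose and 12 fell, against 25.7% and 38.5% of all genes tested in that range. When pairs of libraries up to 1.5-fold apart were considered, in place of 2-fold, 132 genes could be tested, of which 63 rose and 17 fell, against 33.6% and 32.1% of all genes tested in that way. In a strain whose reads came back only with this tighter limit, a pair 1.5 to 2-fold apart also gave the mean. The closer pair was taken by assumption, so the spread, p-values and calls of such genes rest on that choice. Libraries of a strain were close. Over the 101 tested genes with an average of at least 100 in which they could be compared, the median SD on the log2 scale was 0.083 in Δ*pkaA* and 0.063 in the WT. The widest pair was the WT pair of AN6857, an α-1,2-mannosyltransferase by its orthologs, with 839 and 522. Because the recovery considers only pairs less than 2-fold apart, wider pairs would not have been seen. A wrong closer pair could have been taken in their place. The small spread given here, and the p-values that use it, are thus partly set by that limit.

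The genes were sorted by their text into 9 role groups, which the next paragraphs follow along the pathway. The named genes are the 12 with the largest rise and the 12 with the largest fall in the means, those past 2-fold, and the gene with the highest level per kilobase in each role group. Other genes are named after their values were seen. The same holds for the smaller sets taken by a word of the text, such as TRAPII, COG, ESCRT, exocyst, GTPase, COPI coat or ER to Golgi transport vesicle. Counts over these sets describe them and are no support for a pattern. Below, tested means tested with the 2-fold limit unless the 1.5-fold limit is named. Values of genes that could be tested only with the 1.5-fold limit rest on the choice of the closer pair. The percentages given with the tested genes of a group are to be read against the 31.9% of all tested genes that rose and the 33.5% that fell.

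**Figure D2:**
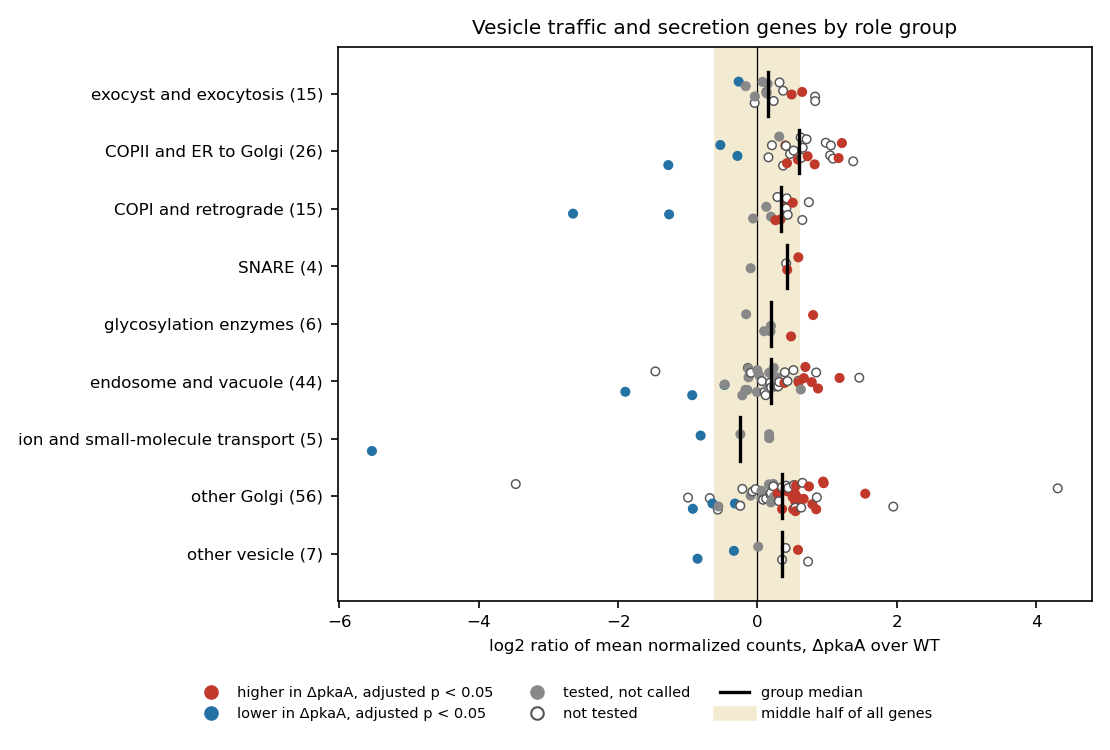
Log2 ratio of the Δ*pkaA* mean to the WT mean (horizontal axis) for each of the 178 genes (points), by role group (vertical axis, number of genes in brackets). Red and blue points rose and fell by the limma test, grey points were tested and not called, and open points were not tested. Vertical bars are group medians and the shaded band spans the quartiles of all genes, -0.61 to 0.59. The median of COPII and ER to Golgi genes, 0.60, lies at the upper edge of the band.

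Transport from the ER to the Golgi was the group that stood highest. All but 3 of its 26 genes had the higher mean in Δ*pkaA*, and the median log2 ratio was 0.60. At least 2-fold higher were 6 genes (23.1%, against 16.3% of all genes), and 1 was at least 2-fold lower (3.85%, against 16.4%). Of the 11 that could be tested, 7 rose (63.6%) and 3 fell (27.3%). AN7679, whose orthologs are membrane proteins of ER to Golgi transport vesicles, had 2367 and 2338 in the Δ*pkaA* libraries and 1087 and 943 in the WT libraries. It rose by a log2 fold change of 1.22 (SE 0.11, limma adjusted p = 5.31e-05). AN4495, with an ortholog role in the same step, had 1154 and 1112 in Δ*pkaA* and 514 and 497 in the WT (log2 fold change 1.16, SE 0.11, limma adjusted p = 6.15e-05). In both genes the libraries of each strain lay close together and far from those of the other strain. AN11715, another vesicle membrane protein, had 2439 and 2215 in Δ*pkaA* and 1317 in each WT library (log2 fold change 0.82, limma adjusted p = 0.00027). AN10878, with a role in vesicle fusion with the Golgi, had 1517 and 1691 in Δ*pkaA* and 938 and 1009 in the WT (log2 fold change 0.72, limma adjusted p = 0.00079).

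The other large differences among these genes rest on the means alone, since the reads of Δ*pkaA* did not come back. AN7302, also a vesicle membrane protein, had a mean of 4425 in Δ*pkaA* and 1707 in the WT, 2.59-fold higher. AN11226 has orthologs that bind the HDEL sequence, the signal by which the ER retains its soluble residents. It stood at 3300 in Δ*pkaA* and 1557 in the WT, 2.12-fold higher. AN1117, whose orthologs are COPII adaptors, which link cargo to the coat, stood at 5635 in Δ*pkaA* and 2734 in the WT (2.06-fold). A pair of genes with ortholog roles in retaining proteins in the ER, AN1154 and AN4446, were 2.08-fold and 1.97-fold higher. A set of 11 genes whose text names the ER to Golgi transport vesicle was picked after the values were seen. Every one had the higher mean in Δ*pkaA*, with a median log2 ratio of 0.82. Of the 3 of them that were tested, 2 rose.

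The genes of the coat itself were abundant and differed by less than 2-fold. AN6257 (*sec31*), for the outer layer of the COPII coat, had means of 10162 in Δ*pkaA* and 6231 in the WT, and AN0261 (*sec23*), a coat component, had 9514 in Δ*pkaA* and 6877 in the WT. AN0411 (*sar1*), the GTPase that starts coat assembly, had 9965 in Δ*pkaA* and 8627 in the WT. It held the highest level of the group per kilobase of gene span, 5321 as the average of both strains. None of these 3 was tested, since all lie above the mean of 5000 at which recovery ended. The ratios of *sec23* and *sar1* were smaller than the group median.

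**Figure D3:**
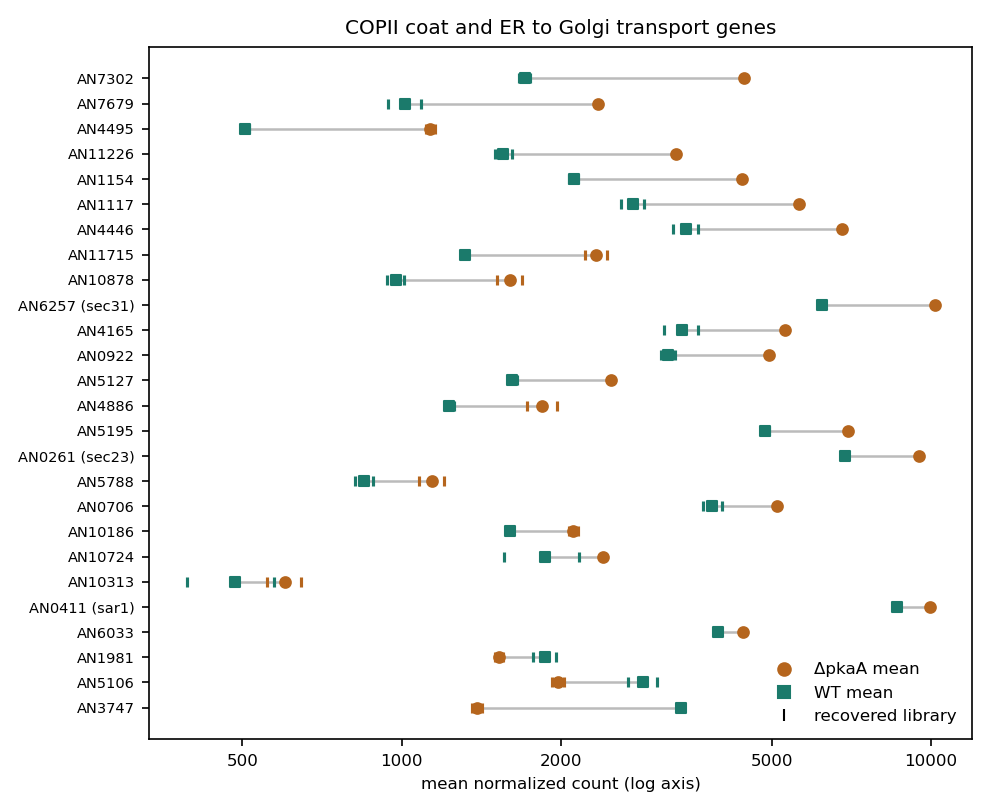
Mean normalized count on a log axis (horizontal) of the 26 COPII and ER to Golgi genes (vertical axis, ordered by ratio, the highest at the top), with Δ*pkaA* means as circles, WT means as squares and recovered libraries as ticks. In 23 genes the circle lies to the right of the square. AN1981, AN5106 and AN3747, at the bottom, lie the other way.

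The 3 genes of this group that fell are not described as coat or cargo genes. AN3747 had 1357.9 and 1415 in Δ*pkaA* and 3394 and 3337 in the WT (log2 fold change -1.28, SE 0.09, limma adjusted p = 2.01e-05), so its groups lay far apart. Its orthologs transfer a geranylgeranyl group to Rab proteins, the lipid that anchors these GTPases to membranes. AN1981 carries the same activity in its text and had 1555 and 1502 in Δ*pkaA* and 1959 and 1771 in the WT (log2 fold change -0.29, limma adjusted p = 0.040). The call of AN1981 held in 1 of 4 fits that each left out a library. The limma adjusted p was 0.015 without WT library b, 0.12 without WT library a or Δ*pkaA* library a, and 0.19 without Δ*pkaA* library b. AN5106, a putative GTPase of ER to Golgi transport, had 2024 and 1926 in Δ*pkaA* and 3032 and 2680 in the WT (log2 fold change -0.53, limma adjusted p = 0.0030).

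Genes by which proteins first enter the ER lie outside the word rule and are given for comparison. Of 19 such genes, 14 had the higher mean in Δ*pkaA*, with a median log2 ratio of 0.31. At least 2-fold higher were 3 (15.8%), near the 16.3% of all genes, and 0 were at least 2-fold lower, against 16.4%. Of the 10 tested, 7 rose (70.0%) and 1 fell (10%). AN9460, of the signal peptidase complex by its orthologs, had means of 1957 in Δ*pkaA* and 732 in the WT (log2 fold change 1.42, SE 0.10, limma adjusted p = 1.68e-05). AN7721, the putative α subunit of the translocon, the channel into the ER, had means of 13746 in Δ*pkaA* and 5530 in the WT and was not tested. The gene that fell, AN11862, is assigned to posttranslational targeting and the TRC complex (log2 fold change -0.89, limma adjusted p = 0.00027).

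The COPI and retrograde group of 15 genes had 12 with the higher mean in Δ*pkaA* and a median log2 ratio of 0.33. Its 2 largest differences went the other way. Of the 9 tested, 4 rose (44.4%) and 2 fell (22.2%). With the 1.5-fold limit 8 of 13 rose and 2 fell, against 33.6% and 32.1% of all genes tested with it. AN8768, placed by its orthologs on COPI-coated and clathrin-coated vesicles, lies on chromosome III (2879033 to 2881081 in the authors' coordinates). It had 726 and 609.8 in Δ*pkaA* and 3855 and 4507 in the WT. This fall, 6.26-fold in the means, was larger than that of any other gene of the group (log2 fold change -2.65, SE 0.13, limma adjusted p = 3.12e-06). Its text gives no role in the coat. AN1297, with an ortholog role in transport from endosome to Golgi, had 1768 and 1904 in Δ*pkaA* and 4161 and 4678 in the WT (log2 fold change -1.27, SE 0.10, limma adjusted p = 3.56e-05).

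Genes whose text names the coatomer or the COPI vesicle coat differed by less than 2-fold. AN0665, coatomer subunit ε, had means of 3931 in Δ*pkaA* and 3223 in the WT, and AN6080, of the COPI vesicle coat, had 3202 in Δ*pkaA* and 2394 in the WT. AN0922, of the same coat and also of ER to Golgi transport, had 4933 in Δ*pkaA* and 3182 in the WT, 1.55-fold higher. The Δ*pkaA* reads of these 3 were not recovered with the 2-fold limit, and only AN6080 could be tested with the 1.5-fold limit, where it rose (log2 fold change 0.42, limma adjusted p = 0.0038). AN10033, on COPI-coated vesicles, had the highest level of the group at 7440 per kilobase, and its means were 11502 in Δ*pkaA* and 8512 in the WT. Of the 4 rises called with the 2-fold limit, that of AN3692 was the largest, with 2429 and 2439 in Δ*pkaA* and 1766 and 1659 in the WT (log2 fold change 0.51, limma adjusted p = 0.0024). The 1.5-fold limit added larger ones in AN7993, of the GARP tether by its orthologs (log2 fold change 0.74, limma adjusted p = 0.00024), and in AN7602, a putative GTPase of traffic from endosomes to the Golgi (log2 fold change 0.64, limma adjusted p = 0.00025).

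Transport inside the Golgi was represented by tethers, GTPases and enzymes. TRAPII is a complex that activates a Rab GTPase at the Golgi, and 7 of the genes are named as its components. Of the 6 tested, 4 rose (66.7%) and 1 fell (16.7%). AN1038 had 1906 and 2068 in Δ*pkaA* and 1361 and 1344 in the WT (log2 fold change 0.55, limma adjusted p = 0.0019). AN8828 went down, with 586 and 622 in Δ*pkaA* and 989.9 and 901 in the WT (log2 fold change -0.64, limma adjusted p = 0.0017). The strains did not overlap in either gene, which is common. Over all genes tested, both Δ*pkaA* libraries lay above both WT libraries in 41.0% and below in 43.1%. The span of AN8828 overlaps a gene on the other strand over 39.5% of its length, and the library kit does not mark strand, so their reads cannot be told apart there. The same holds for AN11500, which rose (log2 fold change 0.74, limma adjusted p = 0.0014) and overlaps over 27.4%.

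Of 5 genes of the conserved oligomeric Golgi (COG) tether, which returns Golgi enzymes to their place, 4 rose (80.0%) and AN7462 was not called. AN8226, involved in cell polarity, wall structure and glycosylation, had 811 and 784 in Δ*pkaA* and 461 and 456 in the WT (log2 fold change 0.80, limma adjusted p = 0.00053). AN11774 had 1821 and 1681 in Δ*pkaA* and 968 and 854 in the WT (log2 fold change 0.94, limma adjusted p = 0.00023). AN7462, with the same text as AN8226, had 1771 and 2023 in Δ*pkaA* and 2233 and 2011 in the WT, and its libraries overlapped (log2 fold change -0.16, limma adjusted p = 0.24). AN11772 rose by only 0.34 on the log2 scale (limma adjusted p = 0.029), and the call held only without WT library a (adjusted p = 0.026), against 0.069 to 0.15 without any other library. AN4886, the fourth, overlaps a gene on the other strand over 20.9% of its span.

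The most abundant gene of all 179 per kilobase was AN4281, a putative GTPase between the cis and medial Golgi, at 13633, with means of 24452 in Δ*pkaA* and 19146 in the WT. AN0347, a putative GTPase of transport within the Golgi, had 10139.5 in Δ*pkaA* and 8650.4 in the WT. Of the 7 genes called GTPases in their text, 6 had the higher mean in Δ*pkaA* and AN5106 was the exception. The 6 differed by at most 0.64 on the log2 scale. None of them was tested with the 2-fold limit, and only AN7602, described above, with the 1.5-fold limit.

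In the glycosylation group, all 6 genes were tested, 2 rose (33.3%) and none fell. These were the COG gene AN8226 and AN11141, an acetylglucosaminyltransferase of N-linked glycosylation. AN11141 had 974 and 892 in Δ*pkaA* and 718 and 617 in the WT (log2 fold change 0.48, limma adjusted p = 0.010, but 0.079 without Δ*pkaA* library a). The α-1,2-mannosyltransferases AN6857 and AN6571 were not called (limma adjusted p = 0.35 and 0.42). The most abundant per kilobase, AN10241 at 865, had 1026 and 1251 in Δ*pkaA* and 980.3 and 1149 in the WT, which overlap (limma adjusted p = 0.57).

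At the plasma membrane end of the pathway, the differences were smaller than at its start. The 15 genes of the exocyst and exocytosis had a median log2 ratio of 0.15, none was past 2-fold, and of 8 tested 2 rose (25%) and 1 fell (12.5%). All 6 genes that name the exocyst had the higher mean in Δ*pkaA*, by a median of 0.14. AN6210, with an ortholog role in exocyst assembly, had 2215 and 2244 in Δ*pkaA* and 1461 and 1397 in the WT (log2 fold change 0.64, SE 0.10, limma adjusted p = 0.00072). AN0462, similar to Sec3p of *Saccharomyces cerevisiae*, had 1938 and 2285 in Δ*pkaA* and 1858 and 1957 in the WT, and one Δ*pkaA* library fell between the WT values (limma adjusted p = 0.30). AN1988 and AN0560 were not called (limma adjusted p = 0.34 and 0.61). AN6493, predicted to dock vesicles, could be tested only with the 1.5-fold limit, with 3236 and 3316 in Δ*pkaA* and 1814 and 1874 in the WT (log2 fold change 0.83, limma adjusted p = 6.04e-05).

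Others in the group act between the Golgi and the plasma membrane. AN1018, of post-Golgi transport, rose (1512 and 1668 in Δ*pkaA*, 1093 and 1169 in the WT, limma adjusted p = 0.0047). AN3144, with a predicted role in vesicle docking, fell by 0.27 on the log2 scale (limma adjusted p = 0.049). That call held without WT library a (adjusted p = 0.026) and not without any other library (0.13 to 0.21). AN0229, the most abundant at 2989 per kilobase, had means of 10339 in Δ*pkaA* and 10624 in the WT. Its ratio changed sides when the strains were scaled to the same sum of means.

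SNARE proteins form the bundle that pulls membranes together. Of 4 genes grouped by that role 3 were tested, and 2 rose (66.7%). AN9526, a t-SNARE, had 2374 and 2166 in Δ*pkaA* and 1499 and 1523 in the WT (log2 fold change 0.59, SE 0.10, limma adjusted p = 0.0014). AN1229, of fusion at the medial Golgi, had 1879 and 1671 in Δ*pkaA* and 1300.1 and 1340.0 in the WT (log2 fold change 0.42, limma adjusted p = 0.0089). The call of AN1229 was lost without Δ*pkaA* library a (limma adjusted p = 0.081). AN12171, with a role in endocytosis, had 474 and 495 in Δ*pkaA* and 484 and 552 in the WT, which overlap (limma adjusted p = 0.54). AN1973, the most abundant at 2324 per kilobase, had means of 3214 in Δ*pkaA* and 2415 in the WT and was not tested.

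The endosome and vacuole group was the largest with a shared route, 45 genes, and nearer to no difference. Of the 44 that passed the filter, 29 had the higher mean in Δ*pkaA* and 15 in the WT, with a median log2 ratio of 0.19, and of 27 tested 7 rose (25.9%), 3 fell (11.1%) and 17 were not called. Its clearest rise was AN4235, placed at the Golgi and vacuole membrane, with 1692 and 1531 in Δ*pkaA* and 693 and 731 in the WT (log2 fold change 1.18, SE 0.11, limma adjusted p = 5.98e-05). AN7682, of the AP-1 clathrin adaptor, had 2293 and 1959.8 in Δ*pkaA* and 1237 and 1240.0 in the WT (log2 fold change 0.78, limma adjusted p = 0.00061). In both genes the lower Δ*pkaA* library exceeded the higher WT library, as it did in 41.0% of all genes tested. Of the 6 tested genes whose text names ESCRT, the machinery that buds vesicles into endosomes, or sorting by the multivesicular body, 1 rose, 1 fell (16.7% each) and 4 were not called. AN6920 and AN1365, both of ESCRT-III, were among those not called (limma adjusted p = 0.21 and 0.94). AN0089 (*rab7*), a small GTPase of endosome maturation, had means of 3699 in Δ*pkaA* and 3033 in the WT.

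On the other side, AN10875, placed at the Golgi, ER and vacuole membrane, had 128 and 154 in Δ*pkaA* and 506 and 545 in the WT (log2 fold change -1.89, SE 0.16, limma adjusted p = 3.56e-05). AN4912, whose orthologs move lipids across membranes, had 1113 and 947 in Δ*pkaA* and 2058 and 1882 in the WT (log2 fold change -0.94, limma adjusted p = 0.00031). AN4171, with ortholog roles in eisosome assembly and TOR signaling, was 2.76-fold lower in Δ*pkaA*, with 2455 in Δ*pkaA* and 6778 in the WT. Its WT reads did not come back and it was not tested. AN1133, the most abundant at 3719 per kilobase, had means of 5286 in Δ*pkaA* and 4295 in the WT. Among genes outside the word rule, 18 of endocytosis and clathrin had 1 rise (12.5%) and 3 falls (37.5%) in 8 tested, and 91 that name the vacuole had 12 rises (30%) and 7 falls (17.5%) in 40 tested.

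AN6307, placed at the Golgi, ER and vacuole membrane, was 2.75-fold higher, with means of 4140.4 in Δ*pkaA* and 1503 in the WT. With the 1.5-fold limit its libraries were 4141 and 4139.5 in Δ*pkaA* and 1524 and 1483 in the WT (log2 fold change 1.46, limma adjusted p = 1.69e-06). A wider pair would also have given its mean, so this small spread and p-value follow from taking the closer pair. This gene lies 932 bases from *pkaA* in the authors' coordinates, with AN6306 between them. AN6306 overlaps *pkaA* over 110 bases and had means of 3214 in Δ*pkaA* and 2538 in the WT. The part of the deleted locus in the level of AN6307 was not tested. AN7957, of a like placement, was barely expressed. It had 12 reads in Δ*pkaA* and 1 in the WT, which puts the ratio at 12.0 (95% counting interval 1.78 to 514).

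The largest falls and the largest rise among all 179 genes belonged to genes that match the words only through where their orthologs' proteins are found. AN7597 (*optB*), on chromosome IV (2087438 to 2090277), has orthologs that carry tetrapeptides across membranes, and its text lists the Golgi beside the ER and plasma membrane. The libraries had 65.7 and 55.0 in Δ*pkaA* and 2890.2 and 2696 in the WT. The 46.3-fold lower mean in Δ*pkaA* was the largest difference in the group (log2 fold change -5.51, SE 0.14, limma adjusted p = 4.29e-07). Among the 5 genes of ion and small-molecule transport, all tested, 2 fell (40%) and none rose. The other one that fell was AN3232, for pantothenate (418 and 407 in Δ*pkaA*, 746 and 706 in the WT, limma adjusted p = 0.00058). The carriers for zinc, phosphoenolpyruvate and UDP-galactose (AN1076, AN4287 and AN10676) were not called (limma adjusted p between 0.070 and 0.24). AN10676 was the most abundant of them, at 939 per kilobase.

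**Figure D4:**
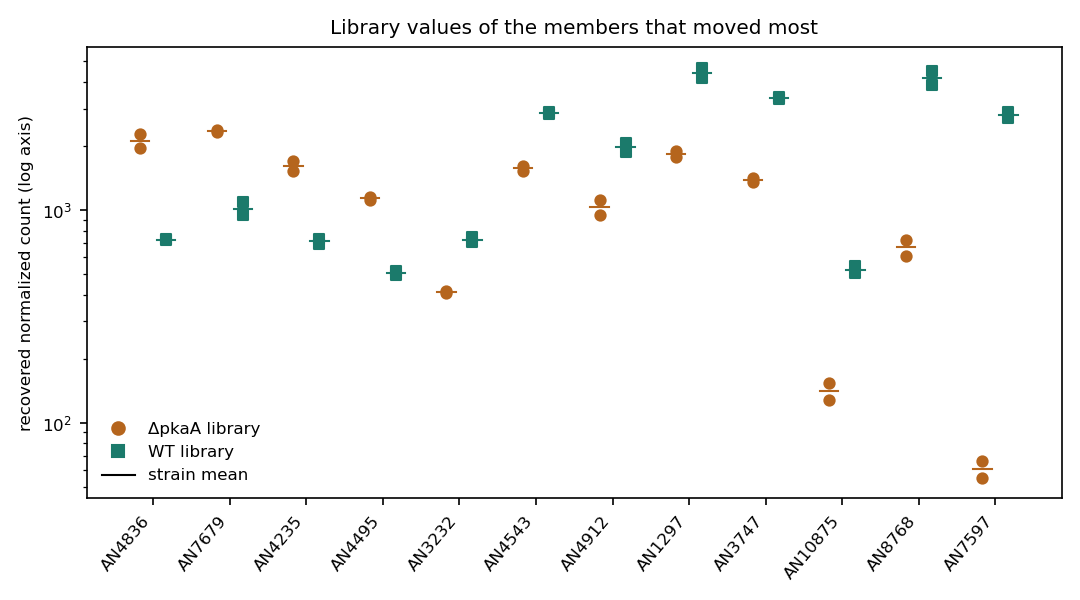
Normalized count of each recovered library on a log axis (vertical) for the 12 tested genes among those named for the size of their difference (horizontal axis, ordered by ratio), with Δ*pkaA* circles left of WT squares and a line at each strain mean. In none of the 12 genes do the strains overlap, but they were picked for large differences, which favours this. Over all genes tested, both Δ*pkaA* libraries lay above both WT libraries in 41.0% and below in 43.1%. AN7597 spans the widest gap, with 65.7 and 55.0 against 2890.2 and 2696.

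AN5650, placed at the Golgi, ER, cell tip and division site, lies on chromosome V (2089615 to 2091343). Its mean was 20594 in Δ*pkaA* and 1039 in the WT, 19.8-fold higher. The WT libraries had 1162 and 915, and the Δ*pkaA* mean is far above the limit of recovery, so the difference was not tested. AN3761, placed at the Golgi and cytosol on chromosome II (3141160 to 3145090), was the reverse, with a mean of 1683 in Δ*pkaA* and 18624 in the WT, 11.1-fold lower. Its Δ*pkaA* libraries had 1591 and 1775, and the WT reads did not come back. AN0416, placed at the Golgi, was 3.86-fold higher, with means of 6447 in Δ*pkaA* and 1669 in the WT.

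AN4836, also placed at the Golgi only, on chromosome III (836865 to 839108), could be tested. It had 1959 and 2281 in Δ*pkaA* and 724 and 727 in the WT, and rose more than any other of the 105 genes (log2 fold change 1.54, SE 0.11, limma adjusted p = 1.98e-05). AN12104 was 1.99-fold lower, with 2758 in Δ*pkaA* and 5502 in the WT. AN5213, placed at the Golgi and the cortex of the cell tip, had 8148 in Δ*pkaA* and 13094 in the WT. Neither was tested. The 56 genes that name the Golgi with no narrower role had a median log2 ratio of 0.35, and of 32 tested 20 rose (62.5%) and 3 fell (9.38%). Counted without the genes whose text gives only a localization, 6 of 133 were at least 2-fold higher (4.51%, against 16.3% of all genes) and 4 at least 2-fold lower (3.01%, against 16.4%). Of the 77 of them that were tested, 31 rose (40.3%, against 31.9%) and 12 fell (15.6%, against 33.5%).

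The 7 remaining vesicle genes gave 1 rise (25%) and 2 falls (50.0%) in 4 tested. AN2279 (*yop1*), with ortholog roles in shaping the tubular ER, was the most abundant at 8598 per kilobase, with means of 15403 in Δ*pkaA* and 9309 in the WT. AN4543, a protein-lysine methyltransferase by its orthologs, had 1618 and 1532 in Δ*pkaA* and 2878 and 2838 in the WT (log2 fold change -0.86, SE 0.09, limma adjusted p = 0.00016). AN4724, of vesicle transport at the cell tip and division site, rose (1126 and 1187 in Δ*pkaA*, 815 and 729.9 in the WT, limma adjusted p = 0.0025).

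The genes were spread over the genome. For the 167 that matched a RefSeq entry, the median log2 ratio was above 0 on every chromosome, between 0.19 on chromosomes II and VII and 0.40 on chromosome IV. Only 5 pairs of the genes are neighbours. In 1 of these, AN5106 and AN5107 on chromosome V, both fell, and the call of AN5107 (log2 fold change -0.32, limma adjusted p = 0.028) held without WT library a (adjusted p = 0.0075) and not without any other library (0.057 to 0.20). Another listed gene overlaps 34 of the 179, and those reads cannot be assigned without strand.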

How the data were processed

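Libraries of 2 Δ*pkaA* and 2 WT samples were made with an Illumina TruSeq v2 kit. The authors used Bowtie2 with the AspGD reference, HTSeq and DESeq. Program versions, the genome release, the use of strand and the handling of the technical replicates named in the labels were not given in the sources used. The values are a signal that the authors deposited per gene, namely a normalized count averaged over the libraries of a strain. Columns that hold the results of the DESeq comparison (fold change, p-value, q-value), and a second table of genes at low p-values, were not used. Seed culture time and pH differ between the methods and the labels.

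The members and lists were chosen with earlier results of these data known, and so was the limma test. Whole reads were recovered from means up to 5000, a limit set after a first simulation gave some wrong pairs above it, to a tolerance of 6e-05, where 1 pair of whole numbers matched. Above a mean of 100 only pairs less than 2-fold apart were considered. The size factors found were 1.02 and 0.982 in Δ*pkaA* and 1.04 and 0.960 in the WT. On simulated means the right pair was found for 84.4% of 9184 Δ*pkaA* values and for 99.7% of 9094 WT values, and a wrong one for 0. The simulated libraries had a spread of only 0.1 on the log2 scale besides counting noise. Pairs beyond the 2-fold limit thus hardly arose, and the simulation cannot show how often a wide pair would be replaced by a wrong closer one. The limma fit used a mean-variance trend on log2(value + 1) over genes with an average of at least 10, with Benjamini-Hochberg adjustment. In simulated data for this comparison (6591 genes) it called 49 of 67 genes changed 1.5-fold, 66 of 67 changed 2-fold, 66 of 66 changed 4-fold and 13 of 6391 unchanged genes. Only 200 genes were changed there, the spread was 0.1 on the log2 scale, and the reads did not pass through the recovery. In the data 2101 genes rose and 2208 fell, so these simulated rates cannot be carried over to the real fit. The deposited values are means and not counts, so limma on the log scale was the main test. No count model was fitted to the recovered reads, but an alternative fit weighted by these reads (voom) kept all 61 calls.

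Members named are pkaA, the 12 largest rises and 12 largest falls in the means (average at least 100), every member past 2-fold, and the highest per kilobase in each role group. Gene spans run from the authors' start to stop. Symbols and chromosomes came from RefSeq (ASM1142v1), in which 167 members matched, and none of its coordinates is given. Alternatives were other pseudocounts, filters, scalings, fold and p limits, recovery limits, weights and each library left out. Counting intervals cover counting error only. The fits were made with limma 3.58.1 in R 4.3.3. Python 3.11.15 was used for the rest, with pandas 2.3.3 and NumPy 2.4.6, intervals by SciPy 1.17.1 and plots by matplotlib 3.10.9.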

Additional observations from a re-analysis of the deposited data

How the results depend on the processing

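Of the 61 tested genes called, 40 were also called in all 4 fits that each left out a library, 30 of them higher in Δ*pkaA* and 10 lower. In those fits a strain with 1 library is assumed to vary like the other. The shares of all genes called in those fits were not counted, so the rises and falls kept there have no background to be read against. With a 2-fold difference in the means required as well, 9 were called, 4 higher and 5 lower, against 16.6% and 17.3% of all genes tested. With no limit between the libraries, only 20 genes could be recovered, and 9 were called, 5 higher and 4 lower. Those 2 counts are nearly even, but the shares over all genes were not counted for that setting. They thus have no background to be read against. Among genes averaging at least 1000, a filter added after seeing the data, 29 of 73 rose and 12 fell, against 25.7% and 38.5% of all genes tested there. In the means, 18 genes were past 2-fold, 57 past 1.5-fold (43 higher, 14 lower), and 10 past 2-fold without those known only by localization (6 higher, 4 lower), which was also added afterwards. Scaling both strains to the same sum raised every log2 ratio by 0.08 and gave AN0229 a log2 ratio of 0.042. AN10241, not called, had log2 fold changes of -0.050 to 0.24 when a library was left out, below 0 without Δ*pkaA* library b or WT library a (-0.02). In none of these settings was a called gene called with the opposite sign.

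No paired analysis was possible because the deposited columns are means per strain without replicate numbers, and the recovered libraries could not be matched to any. Among the limits, 74 genes went untested, with a higher median level than those tested, and pairs of libraries more than 2-fold apart could not be recovered.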
